A study of Mus musculus with 24 samples.

Results

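The aminoacyl-tRNA synthetase genes were followed in MS03 cells, a mouse Schwann cell line with the genotype *Nf2*-/-, after 24 hours with compounds that target focal adhesion kinase (FAK, encoded by *Ptk2*). This gene family was chosen with earlier results of these data known. Within it, nuclear genes for the cytosolic and the mitochondrial enzymes were taken as members by a fixed pattern of names. The pattern did not use their values and gave 37 genes of the 49315 in the count table. Of these, 20 encode cytosolic enzymes or their subunits, with *Gars* and *Kars* counted here although each also supplies the mitochondrial enzyme, and 17 encode enzymes of mitochondria alone. All 37 passed the filter on low counts that left 16070 genes for testing.

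RNA was sequenced from 24 libraries in 8 groups of 3 biological replicates. The controls received the solvent dimethyl sulfoxide (DMSO). At 1 μM, cells received a kinase inhibitor (IN10018, GSK2256098, VS-4718 or defactinib) or the degrader PROTAC FAK degrader 1 (PROTAC-3), and the dose of the other degraders, GSK215 and BSJ-04-0146, was 0.1 μM. A PROTAC joins a ligand of its target to a ligand of an E3 ubiquitin ligase, so that the target is marked for destruction rather than only inhibited. All groups, controls included, came from this single line and carried the same *Nf2*-/- genotype. The labels do not say whether replicates were separate cultures, so P values measure the spread between these libraries.

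Each aminoacyl-tRNA synthetase joins one amino acid to its tRNAs, and translation in the cytosol and in mitochondria depends on separate sets of these enzymes that are both encoded in the nucleus. They fall into class I and class II by the fold of their catalytic domain, and several cytosolic enzymes sit together in a multisynthetase complex held by the scaffolds encoded by *Aimp1*, *Aimp2* and *Eef1e1*. Genes of several cytosolic enzymes are known targets of the transcription factor ATF4, which is made when the kinases of the integrated stress response, such as the sensor of uncharged tRNA GCN2 (*Eif2ak4*), phosphorylate the initiation factor eIF2.

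Total counts per library ranged from 14472462 to 27449516, and the libraries of the PROTACs (14472462 to 21588406) were shallower than those of DMSO (22952048 to 27449516). Each member had from 105 to 25051 counts in a library, and each cytosolic member at least 1279. *Nf2* was at 155 to 193 and *Ptk2* at 77.4 to 102 CPM (counts relative to the library size, scaled by the TMM method and set to a common total), and counts per gene cannot show a deletion of exons or a loss of protein. Of 10 Schwann cell markers, *Sox10* (11.3 to 105 CPM), *Sox2* and *Mbp* were present, whereas *S100b* and *Egr2* were under 1 CPM in all libraries. Of 5 fibroblast genes, *Col1a1* and *Col1a2* were high and *Dcn* and *Lum* were at or near 0. Of 5 macrophage markers, *Ptprc* and *Adgre1* were at or near 0, *Csf1r* and *Aif1* reached at most 1.06 CPM and *Cd68*, a lysosomal protein, was at 2.94 to 11.4 CPM. Of 4 endothelial markers, *Cdh5* and *Kdr* were at or near 0 and *Pecam1* and *Tek* reached at most 0.543 CPM. In a culture, fewer cells of a type and less RNA per cell cannot be told apart.

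In the DMSO libraries the cytosolic genes were expressed at higher levels than the mitochondrial genes. Per kilobase of exons, the level was 57.1 TMM-scaled CPM at the median of the 20 cytosolic genes (26.1 to 129) and 7.43 at the median of the 17 mitochondrial genes (2.65 to 69.5). The length joins all annotated exons of a gene, so these levels and their order depend on the annotation. *Eprs* had 646 CPM with DMSO over 18.1 kb of exons, and *Gars* 403 CPM over 3.12 kb. The order was led by *Gars*, which charges tRNA with glycine in both compartments, at 129 ± 2.23 CPM per kb (SD, n = 3), followed by *Kars*, the lysine enzyme of both compartments, at 99.4 ± 1.88. Among mitochondrial genes the leucine enzyme *Lars2* stood alone at 69.5 ± 20.3, the isoleucine enzyme *Iars2* followed at 20.0, and the glutamate enzyme *Ears2* was lowest at 2.65 ± 0.184. Of the 36 neighbouring pairs in this order, 22 had DMSO libraries that did not overlap. *Lars2* therefore lay among the cytosolic genes, but with a wider spread than its neighbours.

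**Figure D1:**
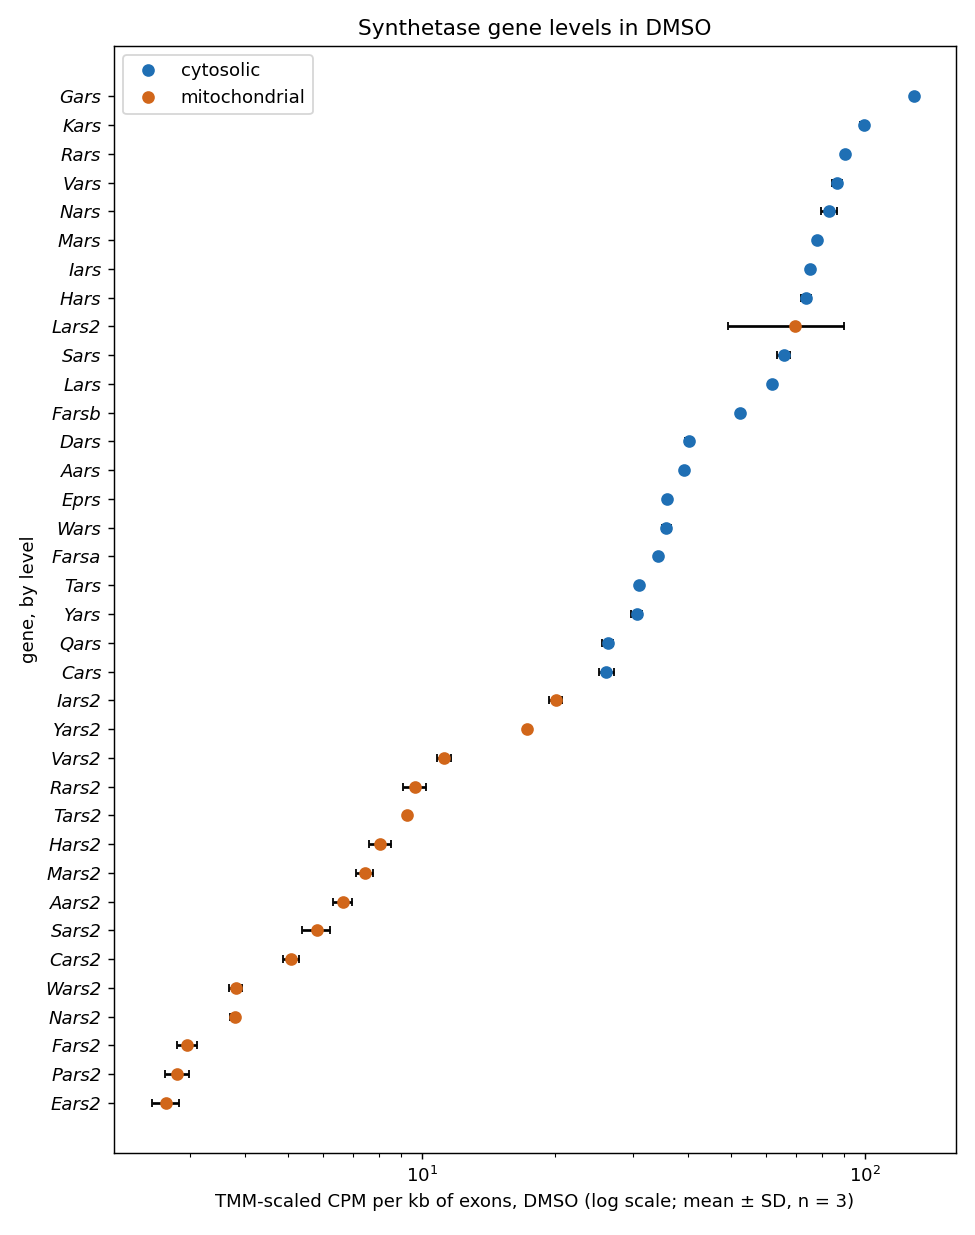
Level of each synthetase gene in DMSO, as TMM-scaled CPM per kilobase of exons on a log axis, with points for the mean and bars for the SD of 3 libraries. Every cytosolic gene (blue) lies above every mitochondrial gene (orange) except *Lars2*, which ranks 9. Exon length joins all annotated exons of a gene, so the order depends on the annotation. The plot shows 36 of the 37 genes.

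The comparisons with DMSO asked whether the cytosolic genes changed together and whether the mitochondrial genes followed. A gene was said to rise or fall when its adjusted P was under 0.05 in edgeR's quasi-likelihood test over all genes. All comparisons of a drug with DMSO share the same 3 control libraries, so the drugs are set side by side and their responses are not independent of each other. With 3 libraries against 3, an exact permutation test of a single gene cannot go below P = 0.1, so the tests rest on the fit across genes.

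PROTAC FAK degrader 1 was followed by the largest increases, and they were uneven. Of the 20 cytosolic genes, 13 rose and 5 fell, with a median log2 fold change of 0.42, beside 34.1% of all tested genes called higher and 32.7% called lower. Changes of at least 1.5-fold were found for 8 cytosolic genes upward and 1 downward, where 16.4% and 14.4% of all tested genes passed that rule. The 3 largest increases were those of *Sars*, *Wars* and *Nars*, which encode the serine, tryptophan and asparagine enzymes. The 3 largest decreases were those of *Farsa*, the catalytic subunit of the phenylalanine enzyme, at -0.62, of the histidine enzyme *Hars* at -0.34 and of the valine enzyme *Vars* at -0.23 on the log2 scale. In the same libraries the sum of the 5 fibroblast genes, mostly *Col1a1* and *Col1a2*, was 994 to 1010 CPM, against 1730 to 1780 CPM with DMSO. That of the 10 Schwann cell markers was 93.0 to 95.4 against 108 to 110 CPM. That of the 5 macrophage markers, which is mostly the single gene *Cd68*, was 11.2 to 12.0 against 3.71 to 4.08 CPM. The part of all these genes in the result was not tested.

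*Sars*, the serine enzyme, was at 350.1, 329 and 333 CPM in the 3 DMSO libraries and at 889, 834 and 810.2 CPM with PROTAC FAK degrader 1. With GSK215 it was at 201, 207 and 218 CPM and with BSJ-04-0146 at 245, 253 and 243 CPM. The degrader 1 libraries lay far above and the libraries of both other PROTACs below all controls. The log2 fold change against DMSO was 1.32 ± 0.034 (SE; adjusted P = 1.63e-29) with degrader 1, -0.69 ± 0.035 (adjusted P = 1.65e-19) with GSK215 and -0.45 ± 0.035 (adjusted P = 5.17e-14) with BSJ-04-0146. Under the kinase inhibitors it was at 342, 362 and 349 CPM with defactinib, 263, 264 and 268 with VS-4718, 295, 288 and 289.6 with GSK2256098 and 383, 377 and 400.5 with IN10018. Of these, the defactinib libraries overlapped the controls, those of VS-4718 and GSK2256098 lay below them and those of IN10018 above.

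*Nars*, the asparagine enzyme, was at 379, 353 and 353 CPM with DMSO and at 716, 737 and 690.1 CPM with degrader 1, an increase of 0.98 ± 0.030 on the log2 scale (adjusted P = 3.01e-27). It was at 198, 194.5 and 197 CPM with GSK215 and at 221, 212 and 215 CPM with BSJ-04-0146. Both low groups were below all controls by log2 changes of -0.88 and -0.75. In the kinase inhibitor libraries *Nars* ranged from 248 to 253 CPM with VS-4718, 312 to 315 with GSK2256098, 385 to 399 with defactinib and 404 to 410 with IN10018, and none of these groups overlapped DMSO.

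*Wars*, the tryptophan enzyme, which is also known as an interferon-responsive gene, rose as far as *Sars* with degrader 1 but fell less with the other PROTACs. It was at 126, 123 and 120 CPM with DMSO and at 311, 312 and 297 CPM with degrader 1 (log2 fold change 1.32 ± 0.032, adjusted P = 2e-30). With GSK215 it was at 89.9, 93.4 and 94.6 CPM and with BSJ-04-0146 at 104, 103 and 102 CPM. Its decreases of -0.41 and -0.25 were smaller than those of *Sars* and *Nars*. In the kinase inhibitor libraries *Wars* stayed between 108 and 129 CPM, and of these groups VS-4718 alone passed the test, at -0.14 (adjusted P = 0.001).

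*Aars*, the alanine enzyme, was at 361, 367 and 362 CPM with DMSO, 723, 709 and 684 CPM with degrader 1, 222, 229 and 228 CPM with GSK215 and 248, 265 and 252 CPM with BSJ-04-0146. Its log2 fold changes were 0.96, -0.68 and -0.51 in these groups, with no overlap with DMSO in any of them. With the kinase inhibitors *Aars* was at 387, 390.3 and 411 CPM (defactinib), 280, 282 and 271 (VS-4718), 329, 327 and 324 (GSK2256098) and 386, 377 and 390.0 (IN10018). The VS-4718 and GSK2256098 groups fell and the defactinib group rose, whereas IN10018 did not pass the test. In GENCODE M21, 14.3% of the exon bases of *Aars* are shared on the same strand with *Exosc6*, which is listed at 0 in all libraries.

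**Figure D2:**
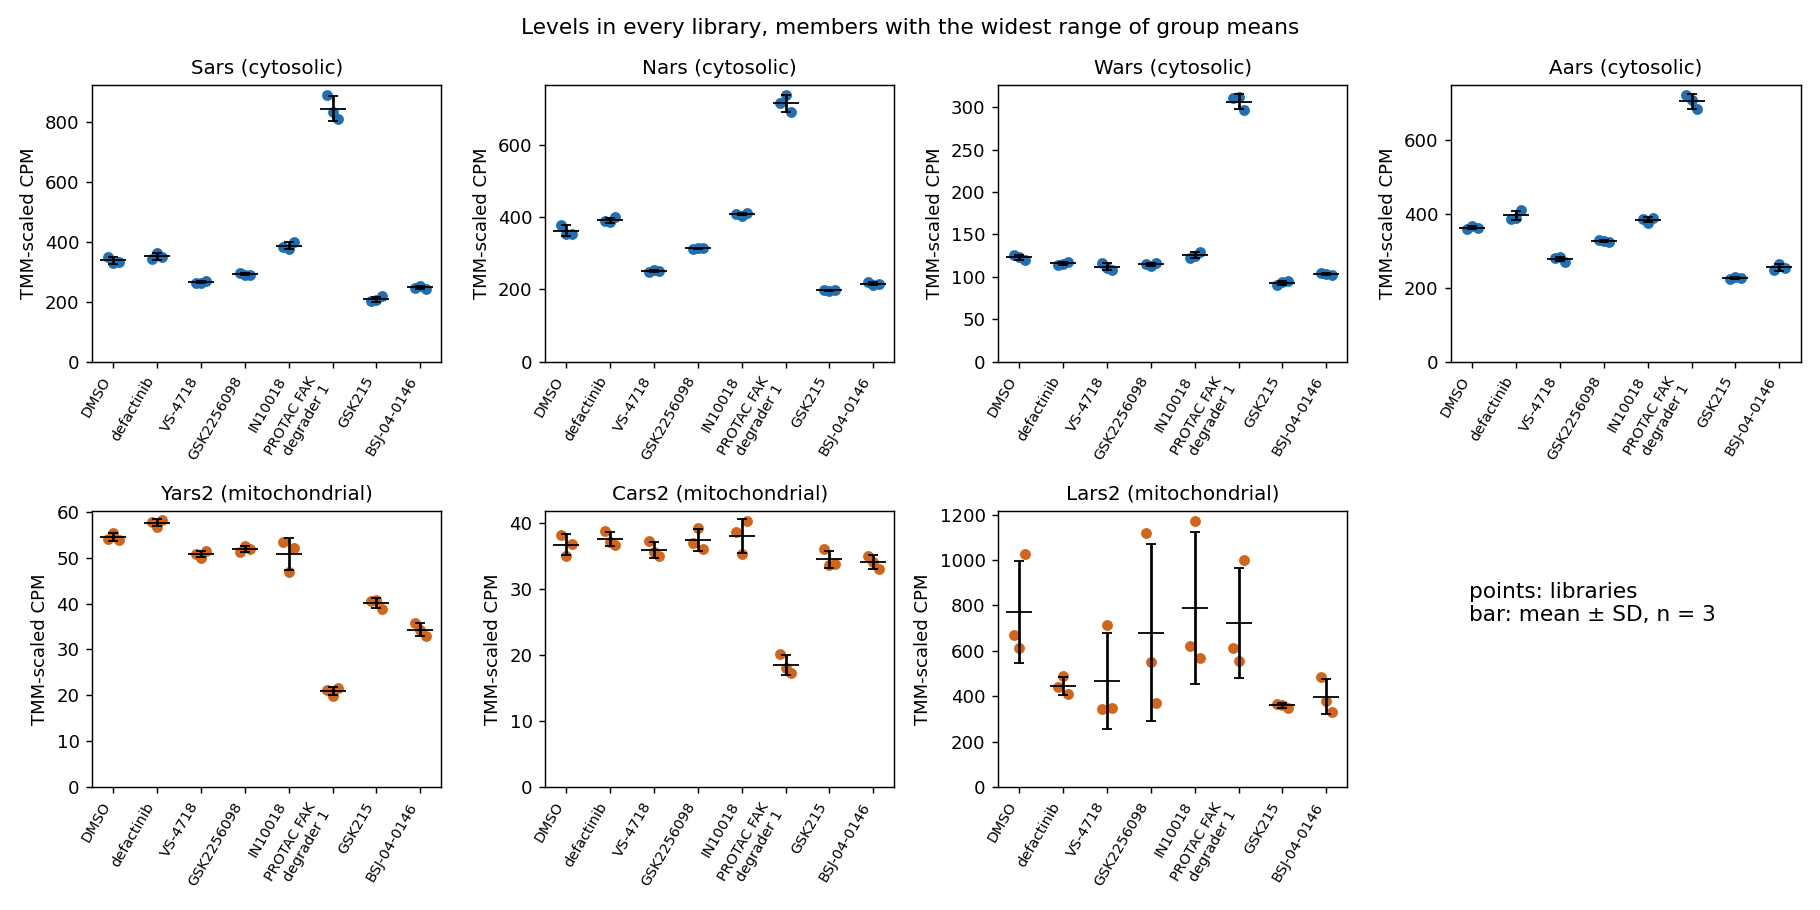
TMM-scaled CPM in each of the 24 libraries (points) with the mean and SD of 3 libraries per group (bars) for the 4 cytosolic and 3 mitochondrial genes whose group means ranged most widely. The degrader 1 libraries are the highest for *Sars*, *Nars*, *Wars* and *Aars* and the lowest for *Yars2* and *Cars2*, while the libraries of *Lars2* spread up to 3-fold within a group.

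GSK215 was followed by lower levels of the whole cytosolic set. All 20 cytosolic genes fell and their median log2 fold change was -0.61 (-1.02 to -0.23), beside 27.4% of tested genes called higher and 27.2% called lower and a median of 0.02 over all tested genes. In 12 of the 20 the decrease was at least 1.5-fold, a size that 4.41% of all tested genes reached downward and 11.2% upward. The largest decreases were those of the cysteine enzyme *Cars* (-1.02 ± 0.034), the methionine enzyme *Mars* (-1.01 ± 0.032) and the isoleucine enzyme *Iars* (-0.88 ± 0.031), with adjusted P of 2.48e-25, 2.73e-26 and 6.42e-25. *Cars* averaged 84.9 ± 0.813 CPM with GSK215 and 172 ± 6.40 with DMSO (SD, n = 3), so that about 49.4% of the control level was left. The glutamine enzyme *Qars* changed least, by -0.23.

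BSJ-04-0146, at the same dose, gave values of nearly the same size. All 20 cytosolic genes fell, with a median of -0.60 (-0.98 to -0.17), beside 27.7% of tested genes called higher and 26.9% called lower. In 11 of the 20 the decrease was at least 1.5-fold, against 4.77% of tested genes downward and 11.3% upward. *Mars* (-0.98), *Iars* (-0.94) and *Cars* (-0.91) again had the largest decreases. All 20 genes had 3 treated libraries below the 3 DMSO libraries in both the GSK215 and the BSJ-04-0146 group. The share of all tested genes with libraries apart in this way was not counted, so this number has no background beside it. With these 0.1 μM degraders the summed level of the fixed Schwann cell markers was 338 to 347 CPM (GSK215) and 321 to 340 CPM (BSJ-04-0146), against 108 to 110 CPM with DMSO. The macrophage markers, mostly *Cd68*, summed to 6.20 to 7.88 CPM (GSK215) and 7.84 to 9.34 CPM (BSJ-04-0146), against 3.71 to 4.08 CPM with DMSO. The fibroblast genes, mostly *Col1a1* and *Col1a2*, summed to 1630 to 1680 CPM and 1330 to 1410 CPM, against 1730 to 1780 CPM. The part of these markers in the result was not tested.

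*Mars* and the gene of the stress factor CHOP, *Ddit3*, overlap on opposite strands and share 68 exon bases, 1.99% of the exons of *Mars*. *Ddit3* ranged from 175 to 5244 counts per library, and the strand setting of the counting is not given in the sources used here, so reads in the shared bases cannot be told apart. *Hars* and its mitochondrial partner *Hars2* share 195 exon bases in the same way, and *Iars2* shares 22.9% of its exon bases with *Rab3gap2* on the other strand.

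Among the kinase inhibitors, VS-4718 was followed by the most changes. With VS-4718, 17 cytosolic genes fell and 1 rose, with a median of -0.36, beside 20.4% of tested genes called higher and 18.9% called lower. *Cars* (-0.63), *Nars* and *Mars* (both -0.53) fell most, and *Farsa* was the gene called higher, at 0.10 ± 0.033 (adjusted P = 0.0125), with libraries that overlapped DMSO. In the VS-4718 libraries the Schwann cell markers summed to 184 to 198 CPM. The fibroblast genes, mostly *Col1a1* and *Col1a2*, summed to 1520 to 1590 CPM and the macrophage markers, mostly *Cd68*, to 5.20 to 6.17 CPM. The part of all these genes in the result was not tested. GSK2256098 gave smaller decreases, with 12 cytosolic genes lower and 0 higher and a median of -0.17, beside 6.36% of tested genes called higher and 6.09% called lower. The tyrosine enzyme *Yars* (-0.27), *Farsb*, the other subunit of the phenylalanine enzyme (-0.25), and *Cars* (-0.24) led them, and no cytosolic gene reached 1.5-fold. The Schwann cell markers summed to 136 to 142 CPM with GSK2256098, to 140 to 144 CPM with defactinib and to 113 to 116 CPM with IN10018, and their part in these results was not tested either.

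Changes of the cytosolic genes were small with defactinib (-0.19 to 0.23 on the log2 scale) and with IN10018 (-0.10 to 0.20). With defactinib 8 cytosolic genes rose and 4 fell, with a median of 0.06, beside 11.4% of tested genes called higher and 11.0% called lower. *Cars* (0.23 ± 0.031, adjusted P = 3.93e-07), *Aars* (0.13) and *Nars* (0.11) rose most, and *Kars* (-0.19), *Farsb* (-0.16) and the aspartate enzyme *Dars* (-0.15) fell most. Of the cytosolic genes, 3 were called higher and 3 lower without DMSO replicate 2, 4 and 5 without DMSO replicate 3, and 5 or 6 higher and 3 or 4 lower without DMSO replicate 1 or any one defactinib replicate. Without the filter on low counts 3 were called higher and 4 lower. For these alternative fits the shares of all tested genes called are not given, so the counts have no background beside them. With IN10018, 4 cytosolic genes rose (*Sars* by 0.20, *Nars* by 0.17, *Cars* by 0.16 and *Gars* by 0.09 on the log2 scale) and 0 fell, beside 6.44% of tested genes called higher and 6.85% called lower. The 16 others lay between -0.10 and 0.08, and with 2 SE on either side between -0.17 and 0.14.

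**Figure D3:**
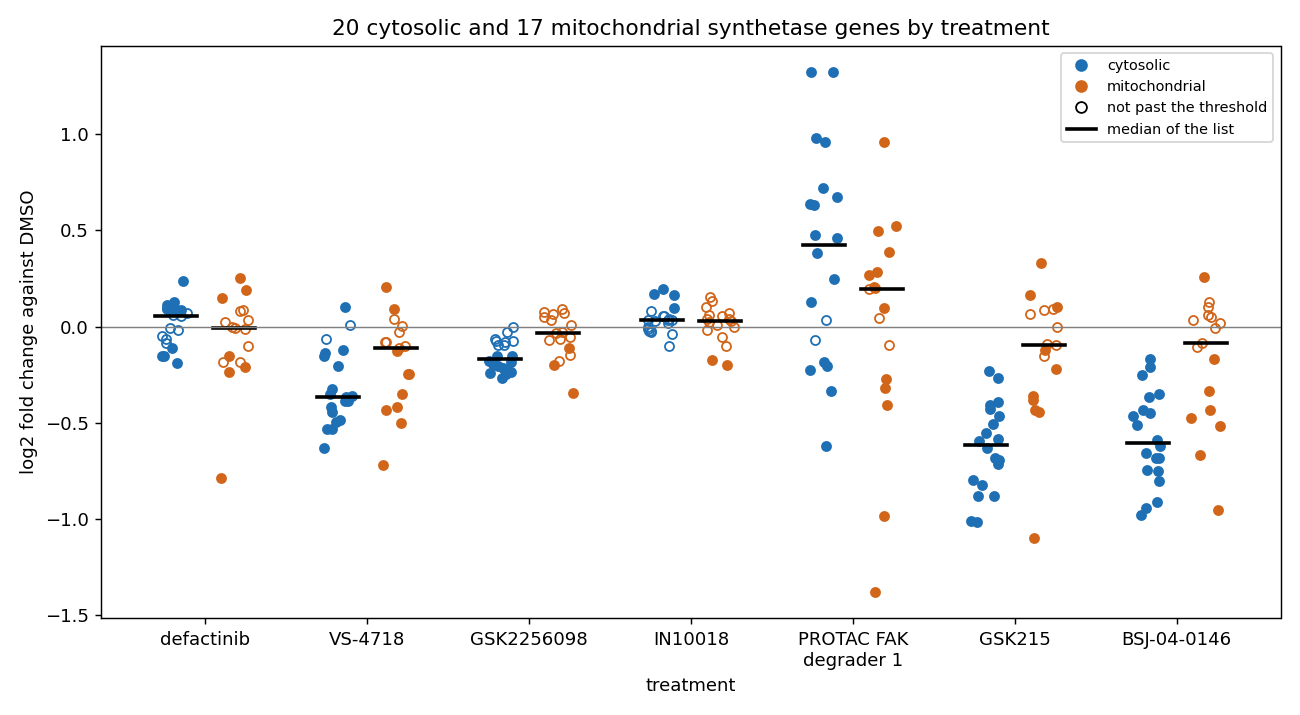
Log2 fold change against DMSO of the 20 cytosolic (blue) and 17 mitochondrial (orange) genes for each treatment, with filled points for genes past the threshold, open points for the others and black lines for the median of each list. The cytosolic medians run from 0.42 with PROTAC FAK degrader 1 to -0.61 with GSK215, and the mitochondrial medians from 0.20 to -0.11.

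With the 3 PROTACs the medians of the mitochondrial genes lay nearer to 0 than those of the cytosolic genes. With degrader 1, 9 of 17 rose and 5 fell, with a median of 0.20, beside 34.1% of all tested genes called higher and 32.7% called lower, so the share that fell was near that of all genes. *Fars2*, the mitochondrial phenylalanine enzyme, rose by 0.96 ± 0.063 on the log2 scale (17.0 ± 0.894 CPM with DMSO and 33.0 ± 2.88 with degrader 1, SD, n = 3, adjusted P = 1.09e-16), followed by *Ears2* (0.52) and the arginine enzyme *Rars2* (0.50). The tyrosine enzyme *Yars2* (-1.38), the cysteine enzyme *Cars2* (-0.98) and the methionine enzyme *Mars2* (-0.41) fell most. The sum over the 16 mitochondrial genes other than *Lars2* was 742 ± 20.3 CPM with degrader 1 and 729 ± 4.94 CPM with DMSO, whereas the sum over the 20 cytosolic genes was 8076 ± 167 and 5808 ± 43.7 CPM.

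*Yars2* was at 54.0, 55.4 and 53.8 CPM with DMSO and at 21.2, 19.9 and 21.5 CPM with degrader 1. It was at 40.4, 40.8 and 38.8 CPM with GSK215 and at 35.8, 34.2 and 33.0 CPM with BSJ-04-0146. All 3 PROTAC groups lay below DMSO without overlap, by -1.38 ± 0.050, -0.44 ± 0.046 and -0.67 ± 0.047 on the log2 scale (adjusted P = 7.43e-25, 8.09e-11 and 2.74e-15). With the kinase inhibitors *Yars2* was between 46.9 and 58.2 CPM and no group passed the test.

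*Cars2* was at 38.2, 35.0 and 36.9 CPM with DMSO and at 20.1, 18.0 and 17.2 CPM with degrader 1, a log2 fold change of -0.98 ± 0.060 (adjusted P = 1.49e-17). In the other 18 treated libraries it was between 33.0 and 40.3 CPM, and no other drug passed the test. GSK215 and BSJ-04-0146 had *Cars2* at -0.09 ± 0.056 and -0.11 ± 0.056 on the log2 scale. A share of 5.83% of its exon bases overlaps *Naxd* on the other strand.

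With GSK215, 7 of 17 mitochondrial genes fell and 3 rose, with a median of -0.09, beside 27.2% of all tested genes called lower and 27.4% called higher. *Lars2* (-1.10), *Yars2* (-0.44) and the tryptophan enzyme *Wars2* (-0.44) fell most, and *Hars2* (0.33 ± 0.055, adjusted P = 2.01e-06), the valine enzyme *Vars2* (0.16) and *Iars2* (0.10) rose. With BSJ-04-0146, 7 fell and 1 rose, with a median of -0.09, beside 26.9% and 27.7%. *Lars2* (-0.95), *Yars2* (-0.67) and the asparagine enzyme *Nars2* (-0.52) fell most and *Hars2* rose by 0.26. With scaling to library totals alone, which moves the median of all tested genes to 0.14 (GSK215) and 0.13 (BSJ-04-0146), the split was 6 higher and 5 lower with GSK215 and 6 and 6 with BSJ-04-0146. The split of calls thus depended on the scaling. The shares of all tested genes called under that scaling are not given, so these counts have no background beside them.

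With VS-4718, 8 of 17 mitochondrial genes fell and 2 rose, with a median of -0.11, beside 18.9% of all tested genes called lower and 20.4% called higher. *Nars2* (-0.50), *Wars2* (-0.43) and the proline enzyme *Pars2* (-0.42) had the largest decreases with libraries apart from DMSO, and *Aars2*, the alanine enzyme, rose by 0.21. With GSK2256098, 3 of 17 fell (*Wars2* at -0.34, *Nars2* at -0.20 and *Mars2* at -0.11) and 0 rose, beside 6.09% and 6.36% of all tested genes. With IN10018, *Mars2* (-0.20) and *Wars2* (-0.17) fell and 0 rose, beside 6.85% and 6.44%. The calls of *Mars2* with GSK2256098 and of *Wars2* with IN10018 were lost under most alternatives. With defactinib 3 rose (*Vars2* by 0.25, *Hars2* by 0.19 and *Iars2* by 0.15) and 4 fell, among them *Lars2*, *Wars2* and *Nars2* (-0.21), beside 11.4% of all tested genes called higher and 11.0% called lower.

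*Lars2* varied more between replicates than any other member. Its highest replicate was up to 3 times its lowest in a group, against at most 1.36 times for the other 36 genes. It was at 672, 613 and 1028 CPM with DMSO, 443, 489 and 409 with defactinib, 345, 714 and 349.8 with VS-4718, 1119, 551 and 373 with GSK2256098, 624, 1172 and 570.0 with IN10018, 612, 556 and 999 with degrader 1, 368, 363 and 349.8 with GSK215 and 484, 380.0 and 333 with BSJ-04-0146. In 5 groups 1 library stood well above the other 2. In 7 of the 8 groups the library highest in *Lars2* was also the highest in the noncoding RNA gene *Gm42418*, chosen after its values were seen, which ranged from 1426 to 6126 CPM. For *Rn7sk*, the other noncoding RNA gene looked at, this held in 5 of the 8 groups. The part of these noncoding RNA genes in the result was not tested.

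The decreases of *Lars2* passed the test with defactinib (-0.79 ± 0.26, adjusted P = 0.0247), VS-4718 (-0.72 ± 0.26, adjusted P = 0.0249), GSK215 (-1.10 ± 0.26, adjusted P = 0.000505) and BSJ-04-0146 (-0.95 ± 0.26, adjusted P = 0.00216). With VS-4718 the libraries overlapped those of DMSO. The call with defactinib was lost without DMSO replicate 3 (adjusted P = 0.202), without defactinib replicate 1 (0.0588) or 3 (0.0853) and with DESeq2 (0.145), all from the fits across genes. Without *Lars2* the counts among the 16 mitochondrial genes were 3 higher and 6 lower with GSK215, 1 and 6 with BSJ-04-0146, 2 and 7 with VS-4718 and 3 and 3 with defactinib. The shares of all tested genes called higher and lower were 27.4% and 27.2%, 27.7% and 26.9%, 20.4% and 18.9%, and 11.4% and 11.0% in this order.

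**Figure D4:**
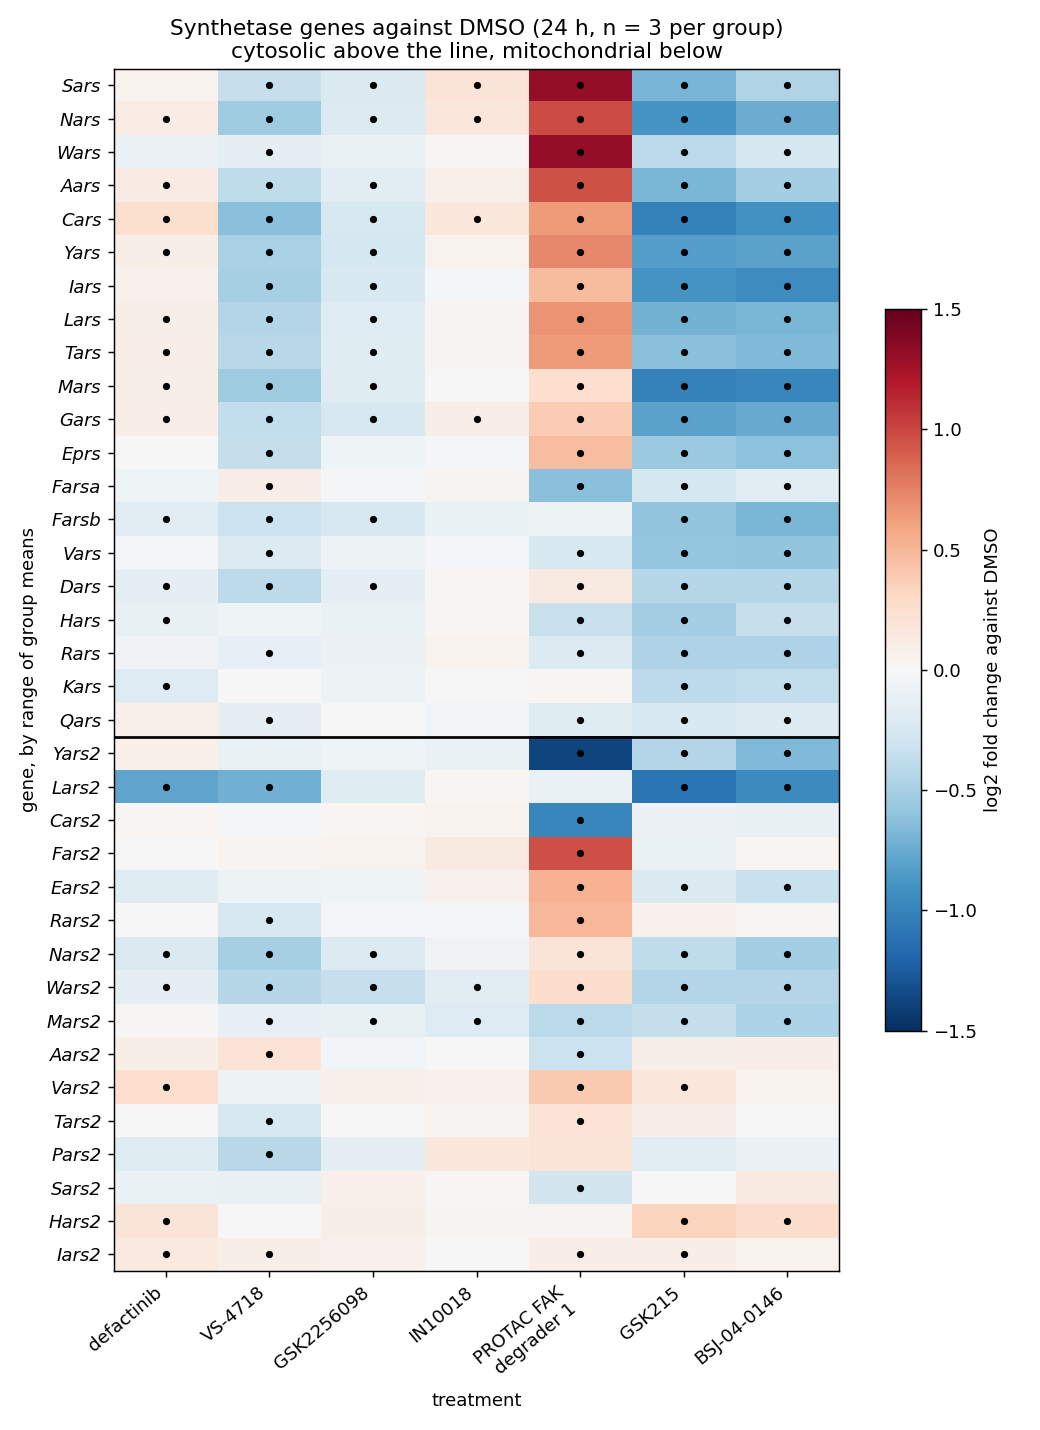
Log2 fold change against DMSO of 36 of the 37 genes (rows, cytosolic above the line and mitochondrial below, each ordered by the range of its group means) for the 7 treatments (columns), with a black dot where the adjusted P is under 0.05. The column of PROTAC FAK degrader 1 is red for the upper cytosolic rows, and the columns of GSK215 and BSJ-04-0146 are blue with a dot in all 20 cytosolic rows.

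The cytosolic genes did not form one block. For 12 of them the range of the 8 group means exceeded 1 on the log2(CPM + 4) scale, from 1.08 for *Eprs*, the joint glutamate and proline enzyme, to 2.00 for *Sars*. These were *Sars*, *Nars*, *Wars*, *Aars*, *Cars*, *Yars*, *Iars*, the leucine enzyme *Lars*, the threonine enzyme *Tars*, *Mars*, *Gars* and *Eprs*, and all of them had their highest mean with degrader 1. The other 8 (*Farsa*, *Farsb*, *Vars*, *Dars*, *Hars*, *Rars*, *Kars* and *Qars*) ranged from 0.29 to 0.70. The lowest mean was that of GSK215 for 13 cytosolic genes, of BSJ-04-0146 for 6 and of degrader 1 for *Farsa*. These groups of genes were set apart by their values, so the contrast between them is a description.

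Members of the multisynthetase complex and the enzymes outside it were also set side by side. With degrader 1, 5 of the 8 cytosolic genes of the complex (*Dars*, *Eprs*, *Iars*, *Kars*, *Lars*, *Mars*, *Qars* and *Rars*) rose and 2 fell, with a median of 0.19, and 8 of the 12 others rose and 3 fell, with a median of 0.64. Of all tested genes 34.1% were called higher and 32.7% lower, so the shares that fell were not above that of all genes. At least 1.5-fold increases were found for 1 gene of the complex, *Lars*, and for 7 outside it, beside 16.4% of all tested genes. With GSK215 the medians were -0.51 in the complex and -0.66 outside it, and with BSJ-04-0146 -0.54 and -0.62. The scaffold genes moved with GSK215 and BSJ-04-0146 (3 of 3 lower in both, medians -0.51 and -0.47). Of all tested genes, 27.2% and 26.9% were called lower with these compounds. With degrader 1, by contrast, *Aimp1* rose by 0.39 and *Aimp2* and *Eef1e1* fell (-0.71 and -0.22). By class, the 9 cytosolic class I genes had medians of 0.48, -0.71 and -0.68 with degrader 1, GSK215 and BSJ-04-0146, and the 10 class II genes, leaving out *Eprs*, which has both, 0.26, -0.61 and -0.48.

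For each of 17 amino acid pairs the level of the cytosolic gene was divided by that of its mitochondrial partner within a library, a ratio that does not depend on the scaling. *Eprs* is the cytosolic gene of both the glutamate and the proline pair, so these pairs are not separate. With degrader 1 the ratio was above its DMSO mean in 11 of 17 pairs, with a median change of 0.43 on the log2 scale, whereas with GSK215 and BSJ-04-0146 it was above DMSO in 2 pairs, with medians of -0.53 and -0.51. The tyrosine pair moved most with degrader 1: the log2 ratio of *Yars* to *Yars2* was 1.74 ± 0.064 with DMSO and 3.84 ± 0.071 with degrader 1 (SD, n = 3). The phenylalanine pair moved the other way, from 3.19 ± 0.057 to 1.61 ± 0.086 for *Farsa* and *Fars2*. This pair leaves out the other subunit gene, *Farsb*, which was at 137 ± 2.09 CPM with DMSO and 130 ± 6.62 with degrader 1. With GSK215 the isoleucine pair changed most, from 1.16 ± 0.039 to 0.17 ± 0.092. The 2 pairs above DMSO with GSK215 and BSJ-04-0146 were those of leucine, with the variable *Lars2*, and of tryptophan, at 0.03 and 0.18.

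**Figure D5:**
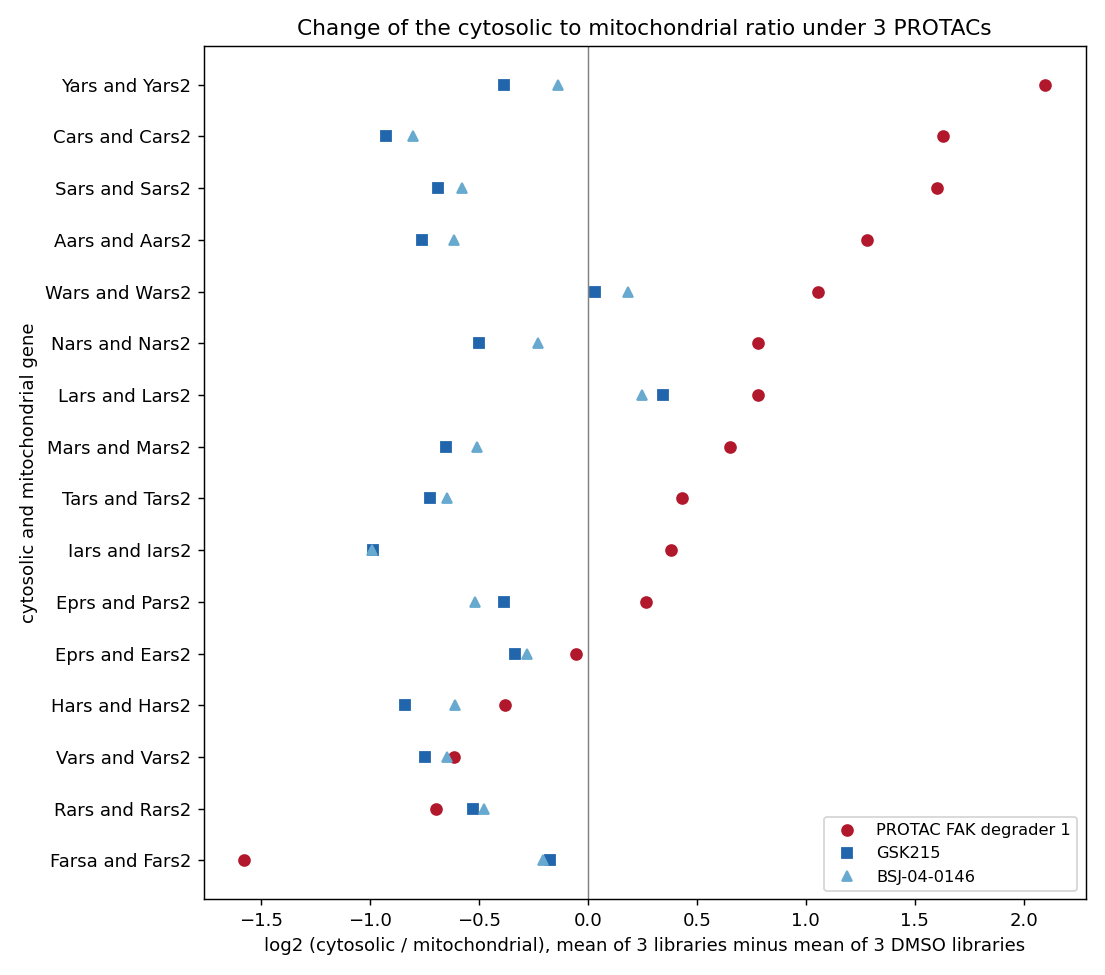
Change from DMSO of the log2 ratio of cytosolic to mitochondrial CPM for 16 of the 17 amino acid pairs under the 3 PROTACs, each point a mean of 3 libraries minus the mean of 3 DMSO libraries. The degrader 1 points (red circles) span -1.58 for *Farsa* and *Fars2* to 2.10 for *Yars* and *Yars2*, and the points of GSK215 and BSJ-04-0146 lie left of 0 for 14 of the 16 pairs.

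Compounds given at the same dose were compared directly. PROTAC FAK degrader 1 and defactinib, from which its FAK-binding part is derived, were both at 1 μM. Against defactinib, 15 of the 20 cytosolic genes were higher with degrader 1 and 5 lower, with a median of 0.35, beside 34.9% of tested genes called higher and 34.0% called lower. *Wars* (1.41 ± 0.032, adjusted P = 3.05e-31), *Sars* (1.27) and *Nars* (0.87) had the largest increases and *Farsa* (-0.56), *Qars* (-0.26) and *Hars* (-0.23) the largest decreases. Of the mitochondrial genes 10 were higher, led by *Fars2* (0.97), *Ears2* (0.70) and *Lars2* (0.69), and 6 lower, led by *Yars2* (-1.46), *Cars2* (-1.02) and *Mars2* (-0.43). The higher level of *Lars2* lost its call without degrader 1 replicate 3 (0.39, adjusted P = 0.204).

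VS-4718 and defactinib were both kinase inhibitors at 1 μM. Against defactinib, 15 cytosolic genes were lower with VS-4718 and 2 higher, with a median of -0.38, beside 18.0% of tested genes called higher and 16.0% called lower. *Cars* (-0.87 ± 0.032, adjusted P = 5.27e-23), *Nars* (-0.64) and *Mars* (-0.61) had the largest decreases, and *Kars* and *Farsa* were higher by 0.20 and 0.17. Of the mitochondrial genes 8 were lower, led by *Vars2* (-0.33), *Nars2* (-0.29) and *Wars2* (-0.28), and 0 higher.

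GSK215 and BSJ-04-0146, both PROTACs at 0.1 μM, differed little in this family. Of the cytosolic genes 7 were lower with GSK215 and 0 higher, with a median of -0.03, beside 9.88% of tested genes called higher and 12.6% called lower. The differences were small: *Sars* by -0.24 ± 0.036 (adjusted P = 2.42e-06), *Aars* by -0.17 and *Hars* by -0.16 on the log2 scale led them. All 8 genes of the complex were among the 13 that were not called, whose differences lay between -0.05 and 0.09, and between -0.11 and 0.17 with 2 SE on either side. *Yars2*, 0.22 ± 0.051 higher with GSK215 (adjusted P = 0.00117), was the mitochondrial gene past the threshold.

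Genes named as part of ATF4 signaling were taken as a companion list of 15, which includes the kinase genes *Eif2ak4* and *Eif2ak3*, the amino acid enzymes *Asns*, *Psat1*, *Phgdh* and *Shmt2* and the stress genes *Ddit3*, *Trib3* and *Chac1*. With degrader 1, 14 of 15 rose and 0 fell, with a median of 0.91, beside 34.1% of all tested genes called higher, and *Ddit3* (3.59), the kinase-like inhibitor *Trib3* (2.79) and the mTORC1 inhibitor *Ddit4* (1.75) rose most. With GSK215, 14 fell and 1 rose (median -0.98), with BSJ-04-0146 14 fell (median -0.98) and with VS-4718 14 fell (median -0.76), where 27.2%, 26.9% and 18.9% of all tested genes were called lower. *Chac1*, a glutathione-degrading enzyme, *Slc7a11*, the cystine transporter, and *Trib3* had the largest decreases in each of these groups, of -3.07, -2.75 and -2.67 with GSK215. With GSK2256098, 13 fell (median -0.38), with IN10018 9 rose (median 0.14) and with defactinib 5 rose and 6 fell (median 0.01). The shares over all tested genes were 6.09% lower with GSK2256098, 6.44% higher with IN10018 and 11.4% higher and 11.0% lower with defactinib. *Atf4* itself was at 0.88 with degrader 1, -1.16 with GSK215, -1.09 with BSJ-04-0146, -0.82 with VS-4718 and -0.10 with defactinib, all past the threshold.

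Other genes of tRNA handling are set beside the shares of all tested genes, which were 27.4% higher and 27.2% lower with GSK215, 27.7% and 26.9% with BSJ-04-0146 and 34.1% and 32.7% with degrader 1. Of 17 tested genes for cytosolic tRNA maturation and export, 12 fell and 0 rose with GSK215 (median -0.29) and 12 fell and 2 rose with BSJ-04-0146 (median -0.34), whereas with degrader 1, 8 fell and 4 rose (median -0.06), led by the RNase P gene *Pop1* at -1.60. Of 20 tested genes for mitochondrial tRNA and translation factors, 11 fell and 4 rose with GSK215 and 10 fell and 3 rose with BSJ-04-0146. The shares that fell in these groups were above those of all tested genes. With degrader 1, 8 fell and 7 rose, which are shares near those of all tested genes, and the elongation factor gene *Gfm1* was at -1.02. Of 5 tested synthetase-like and editing genes, 4 rose and 1 fell with degrader 1 (median 0.43), and 3 fell with GSK215.

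Promoter sequence was examined because several cytosolic genes moved together. RefSeq windows (GRCm38.p6, 250 bases before to 50 after the start) were matched for 27 of the 37 genes, and those with no match include *Cars*, *Hars*, *Rars*, *Lars*, *Nars*, *Vars*, *Wars*, *Hars2* and *Pars2*. The C/EBP-ATF element, searched as TGATGNAA on both strands, was found in 5 of 13 cytosolic genes (*Aars*, *Gars*, *Iars*, *Tars* and *Yars*) and in 0 of 14 mitochondrial genes, against 4.51% of all genes with a window. The E-box CACGTG was found in 4 of 13 cytosolic genes (*Aars*, *Farsb*, *Iars* and *Tars*) and in 1 of 14 mitochondrial genes (*Ears2*), against 8.09% of all genes. A match is a description of these letters and not a site of binding.

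The stretches from 150 bases before to 30 after the start are shown for the 5 genes with the C/EBP-ATF letters, 5′ to 3′ on the strand of the gene, with the matches in capitals. They lie at chr8:111033692-111033871 (*Aars*, plus strand), chr6:55037851-55038030 (*Gars*, plus), chr13:49681980-49682159 (*Iars*, plus), chr15:11399629-11399808 (*Tars*, minus) and chr4:129189753-129189932 (*Yars*, plus).
Aars: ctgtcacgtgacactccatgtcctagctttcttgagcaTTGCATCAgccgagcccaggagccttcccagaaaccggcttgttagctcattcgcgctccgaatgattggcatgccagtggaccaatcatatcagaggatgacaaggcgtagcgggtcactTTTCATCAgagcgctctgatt
Gars: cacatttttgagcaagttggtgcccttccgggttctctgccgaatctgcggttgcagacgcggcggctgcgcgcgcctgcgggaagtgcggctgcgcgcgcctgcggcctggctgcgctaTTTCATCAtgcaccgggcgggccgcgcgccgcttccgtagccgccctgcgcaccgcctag
Iars: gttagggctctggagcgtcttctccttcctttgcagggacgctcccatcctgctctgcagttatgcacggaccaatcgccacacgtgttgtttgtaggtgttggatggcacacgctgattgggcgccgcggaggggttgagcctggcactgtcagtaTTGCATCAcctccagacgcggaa
Tars: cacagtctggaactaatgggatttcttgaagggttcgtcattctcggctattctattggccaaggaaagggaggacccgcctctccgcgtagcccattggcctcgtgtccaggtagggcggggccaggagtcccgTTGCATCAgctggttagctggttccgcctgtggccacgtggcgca
Yars: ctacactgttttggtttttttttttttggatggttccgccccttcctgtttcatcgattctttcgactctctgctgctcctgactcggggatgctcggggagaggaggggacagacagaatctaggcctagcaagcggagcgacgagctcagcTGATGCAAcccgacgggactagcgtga
In *Aars*, *Gars*, *Iars* and *Tars* the letters run on the opposite strand, so they read as the reverse complement in these lines, and in *Yars* they run in the direction of the gene. With the start base as 0, the first base of the match lies at -112 and 9 in *Aars*, -30 in *Gars*, 7 in *Iars*, -15 in *Tars* and 3 in *Yars*. These 5 genes changed by 0.96, 0.38, 0.48, 0.63 and 0.72 on the log2 scale with degrader 1, by -0.68, -0.80, -0.88, -0.63 and -0.82 with GSK215 and by -0.51, -0.75, -0.94, -0.66 and -0.80 with BSJ-04-0146, in the order shown. Cytosolic genes with a window but no match also changed. Among them, *Sars* changed by 1.32 and *Farsa* by -0.62 with degrader 1, and *Mars* by -1.01 with GSK215 and -0.98 with BSJ-04-0146. Whether the letters go with the changes was not tested.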

How the data were processed

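MS03 cells were profiled by bulk RNA sequencing in 24 libraries, 3 per treatment, with poly(A) selection. The authors deposited raw counts, whole numbers of reads per gene. The submitters' processing notes name Trimmomatic 0.36, STAR 2.5.2b, featureCounts of Subread 1.5.2 and GRCm38, and the strand setting and annotation release are not given in the sources used here. Columns were tied to samples by library number.

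Counts were tested in R 4.3.3 with edgeR 4.0.16: TMM factors, filterByExpr, then glmQLFit with a coefficient for each of the 8 groups (16 residual degrees of freedom) and glmQLFTest. Benjamini-Hochberg adjustment ran over all 16070 tested genes, and adjusted P under 0.05 counted as past the threshold. Standard errors were computed as |log2 fold change|/√F. Replicates are labelled as biological, and all pairs within a group differed by more than counting noise. Gene positions and exon lengths are those of GENCODE M21, and promoter windows and their sequences are those of RefSeq (GRCm38.p6). Exon length is the number of bases in all annotated exons of a gene joined together. The test code was tested on simulated data.

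The members and the companion lists were chosen with earlier results of these data known. Values in every library are given for the 4 cytosolic and 3 mitochondrial genes with the widest range of group means of log2(CPM + 4). Per comparison, the 3 largest increases and 3 largest decreases in each compartment were named, among genes past the threshold with all 3 treated libraries beyond all 3 control libraries. The exceptions are said where they stand, and 1 member and 1 marker are not reported by name here. Alternatives were library totals, DESeq2 1.42.0, limma-trend (limma 3.58.1) on log2(CPM + 4), no filter, a replicate block, the 6 libraries compared alone and each library left out. Leaving out the library highest in *Gm42418* of each group was added after seeing the data.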

Additional observations from a re-analysis of the deposited data

How the results depend on the processing

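Scaling to library totals, DESeq2, limma-trend, no filter, the 6 libraries compared alone and the replicate block left the number of members past the threshold within 1.5 times of its reported value in all 10 comparisons. Replicate numbers did not pair the libraries: deviations of libraries with the same number had a median correlation of -0.0127 over 84 pairs, and with the replicate block 29 members passed with GSK215 against DMSO, beside 30 without it. Leaving out 1 library at a time gave 12 to 15 members with defactinib against DMSO (19 with all libraries), with the lowest without DMSO replicate 2. The difference between the cytosolic and the mitochondrial median with IN10018 ranged from -0.013 to 0.036 on the log2 scale when single libraries were left out and was 0.0034 with all libraries, so it had no stable sign. Leaving out, in each group, the library highest in *Gm42418* gave 10 members with defactinib against DMSO, 4 with GSK215 against BSJ-04-0146 (8 with all libraries) and a difference between the medians of 0.32 with degrader 1 (0.23 with all libraries), where 2 libraries per group remained; the cause was not tested. Of 1079 values of single named genes under an alternative, 1030 kept their call and direction, 49 lost the call and 0 reversed.

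Split by direction, DESeq2 called 3 mitochondrial genes higher and 2 lower with defactinib (3 and 4 in edgeR) and 1 cytosolic gene higher and 6 lower with GSK215 against BSJ-04-0146 (0 and 7). Counts of members under an alternative stand in this section without the share of all tested genes in the same fit. Depth limits the low mitochondrial genes: standard errors of the log2 fold change were up to 0.11 for mitochondrial genes other than *Lars2* and up to 0.043 for cytosolic genes. Counts are relative to the library, so a common change of all genes cannot be seen.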
